A study of Mus musculus with 33 samples.

Results

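The 10 genes described here mark inhibitory neurons and the neuropeptides that many of them release: Gad1, Gad2, Slc32a1, Pvalb, Lhx6, Sst, Npy, Vip, Cck and Crh. They were picked by gene name, with no threshold on a measured value, from the 38393 features of the deposited count tables, and all 10 were found. RNA came from C57Bl/6J male mice aged 1 month, and polyadenylated RNA was made into 33 stranded libraries with 6.89 to 24.94 M counts each. CyrMut mice carry a mutated site for the microRNA miR-7 in the long noncoding RNA Cyrano, CyrKO mice are labelled Cyrano-/-, and Mir7DKO mice are labelled Mir7a1-/-; Mir7b-/-. Experiment 1A held cerebella of 4 CyrMut and 3 wild-type (WT) mice, and experiment 1B held cerebella of 4 CyrKO, 4 Mir7DKO and 4 WT mice. Experiment 2 held 3 Mir7DKO and 4 WT cerebella, and 3 Mir7DKO and 4 WT cortices. The labels name germline genotypes of whole animals with no Cre or transgene, and the Mir7DKO label names no change to Mir7-2, another mouse gene that encodes miR-7a.

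GABA is made from glutamate by the decarboxylases GAD67 (Gad1) and GAD65 (Gad2) and loaded into synaptic vesicles by the transporter VGAT (Slc32a1), so all inhibitory neurons that use GABA need these genes. In the cortex, inhibitory interneurons are a minority of neurons and fall into classes named for what they make, chiefly parvalbumin (Pvalb), somatostatin (Sst) and vasoactive intestinal peptide (Vip), with neuropeptide Y (Npy), cholecystokinin (Cck) and corticotropin-releasing hormone (Crh) in some of them. Lhx6 is the transcription factor that sets the Pvalb and Sst classes. In the cerebellum, the inhibitory cells include Purkinje cells and the interneurons of the molecular and granular layers, and Purkinje cells and molecular layer interneurons make parvalbumin. miR-7 represses messenger RNAs by short matches in their 3′ UTRs, and Cyrano directs the destruction of miR-7.

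Cyrano and tissue markers were read as a check of the CyrKO and tissue labels. Cyrano was at 80.4 ± 6.12 CPM in CyrKO cerebella, against 1847 ± 189 CPM in WT cerebella of experiment 1B (SD, n = 4 each). CPM is counts per M counts of a library after scaling of library sizes. In WT mice of experiment 2, the Purkinje cell gene Pcp2 averaged 244 ± 21.3 CPM in cerebellum and 0.175 ± 0.265 CPM in cortex, and Fezf2, a transcription factor of deep-layer cortical neurons, had 0 counts in cerebellum and 813 in cortex (n = 4 each). Because these are whole tissues, fewer cells of a type and less RNA per cell cannot be told apart in any value below.

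WT cerebellum against WT cortex in experiment 2 showed the clearest pattern among the 10 genes. All 10 passed edgeR's quasi-likelihood test at a Benjamini-Hochberg adjusted p under 0.05, 3 higher in cerebellum (Gad1, Slc32a1, Pvalb) and 7 lower (Gad2, Sst, Npy, Vip, Cck, Crh, Lhx6). Sst, Vip, Crh and Lhx6 had too few counts to be tested within cerebellum of this experiment and entered by their cortex counts. Their direction was therefore all but fixed by the filter on low counts. Of all 14001 genes tested, 74.7% passed, 37.3% higher and 37.4% lower, so passing is common between these tissues and the size of the changes tells more. Of the genes tested, 1.64% passed with a log2 change of 3 or more upward and 4.04% passed with 3 or more downward. Pvalb was past the upper limit while all 5 neuropeptide genes and Lhx6 were past the lower. Of those past the lower limit, only Npy and Cck had enough counts to be tested within cerebellum as well.

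The genes of GABA synthesis and transport differed least between the tissues. Gad1 (ENSMUSG00000070880, + strand of chromosome 2, 70553072 to 70602014, GRCm38) was at 491, 521, 472 and 507 CPM in WT cerebella, against 312, 345, 321 and 326 CPM in WT cortices. The groups did not overlap, as was the case for 68.4% of genes tested, and Gad1 was 0.60 higher on the log2 scale in cerebellum (SE 0.042, adjusted p = 8.13e-12). Slc32a1 (ENSMUSG00000037771, + strand of chromosome 2, 158610767 to 158615748) was at 96.5, 79.1, 82.0 and 85.8 CPM in cerebella, against 56.3, 71.5, 65.1 and 69.2 CPM in cortices. Every cerebellum was above every cortex here too, and the log2 change was 0.38 (SE 0.070, adjusted p = 3.57e-05).

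Gad2 (ENSMUSG00000026787, + strand of chromosome 2, 22622205 to 22693874) went the other way and only narrowly. Its level was 236, 248, 241 and 245 CPM in WT cerebella, against 222, 294, 269 and 272 CPM in WT cortices. The lowest cortex lay under all 4 cerebella, so the groups overlapped, and the log2 change of -0.13 (SE 0.058) had an adjusted p of 0.0478. DESeq2 did not call it (adjusted p = 0.0891). Without WT cortex replicate 1, that lowest library, the change was -0.21 with an adjusted p of 9.39e-05 by edgeR's test, and leaving out any other 1 of the 8 libraries lost the call (adjusted p up to 0.242). As a ratio per kb of exon, Gad1 stood at 1.58 ± 0.050 times Gad2 in cerebellum and at 0.956 ± 0.086 times Gad2 in cortex (SD, n = 4 each). The lowest cerebellar ratio was 1.51 and the highest cortical ratio 1.08. Exon length here is the union of annotated exons, and the size of the ratio depends on it. Undivided by length, Gad1 was at 2.05 ± 0.066 times Gad2 in cerebellum and at 1.24 ± 0.111 times Gad2 in cortex.

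Pvalb (ENSMUSG00000005716, - strand of chromosome 15, 78191114 to 78206400), which encodes the calcium-binding protein parvalbumin, was far higher in cerebellum. WT cerebella held 412, 377, 391 and 406 CPM, against 35.7, 35.9, 33.0 and 30.3 CPM in WT cortices. That is a log2 change of 3.55 (SE 0.055, adjusted p = 3.33e-24) with every cerebellum far above every cortex.

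**Figure D1:**
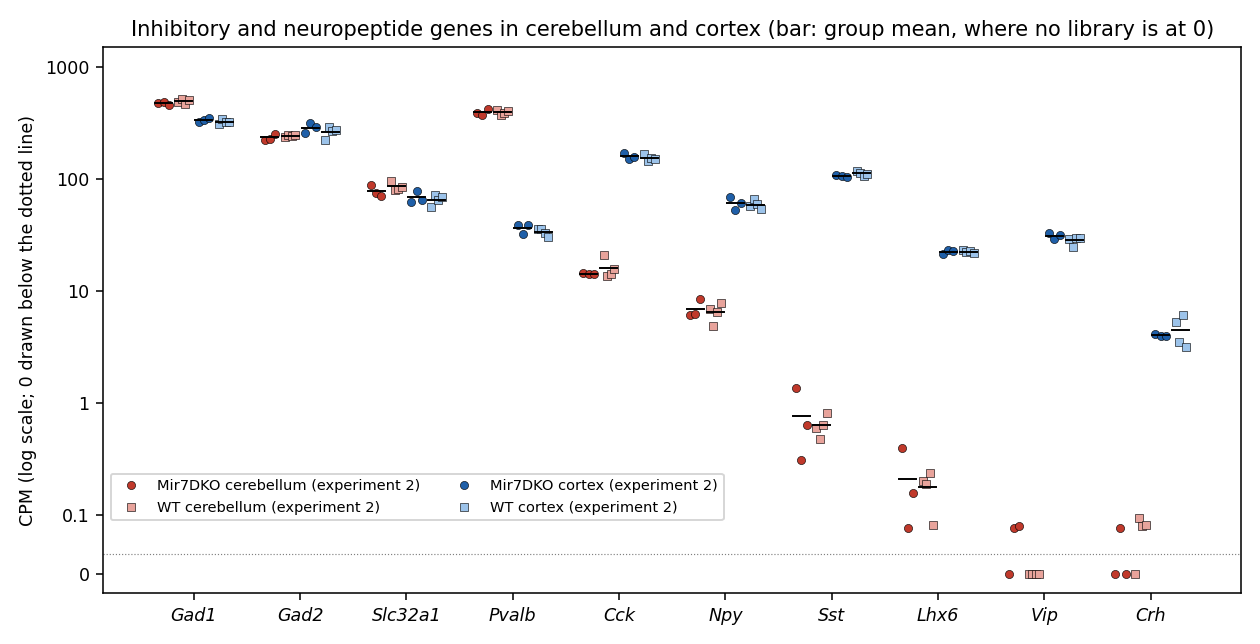
CPM of each gene in every library of experiment 2, on a log axis with 0 drawn below the dotted line; circles are Mir7DKO and squares WT, red cerebellum and blue cortex, and bars are group means where no library is at 0. For Gad1, Gad2 and Slc32a1 the 4 groups lie closer to each other on this axis than for the other genes. Pvalb is at 370 to 422 CPM in cerebellum and 30.3 to 39.1 CPM in cortex, and Sst, Lhx6, Vip and Crh are near 0 in cerebellum only.

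The neuropeptide genes all had lower levels in WT cerebellum. Sst (ENSMUSG00000004366, - strand of chromosome 16, 23889573 to 23890958) was at 0.601, 0.474, 0.638 and 0.820 CPM in cerebella, against 118, 114, 106 and 111 CPM in cortices. Its log2 change of -7.43 (SE 0.108, adjusted p = 8.74e-25) rests on 29 counts in all 4 cerebella and 3241 in the cortices. Sst transcription is known to answer to cyclic AMP through the cyclic AMP response element TGACGTCA, which lies 48 bases before the RefSeq start of the gene (GRCm38.p6, chr16:23890874-23890903, - strand). The GENCODE M21 gene given above starts farther upstream, so the window lies before the RefSeq start but inside the GENCODE gene. It is shown with the element in capitals to place this regulatory sequence beside the gene it is named for.

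Sst promoter: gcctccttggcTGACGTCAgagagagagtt

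Promoters of 300 bases were in the table for 9 of the 10 genes, all but Crh, and Sst alone of them held the full element, which 2.03% of the 27025 genes in the table hold in at least 1 promoter on either strand. The short element TGACG, which is part of the full one, was found in Gad2, Sst, Vip and Cck, 4 of the 9, and in 23% of all genes in the table. A match is a string of letters and not a bound site.

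Npy (ENSMUSG00000029819, + strand of chromosome 6, 49822710 to 49829507) was at 6.91, 4.92, 6.46 and 7.79 CPM in WT cerebella, against 57.1, 65.9, 59.8 and 54.2 CPM in WT cortices, a log2 change of -3.18 (SE 0.10, adjusted p = 1.56e-18). Cck (ENSMUSG00000032532, - strand of chromosome 9, 121489824 to 121495694), which cortical pyramidal cells also make, was at 20.8, 13.5, 14.2 and 15.8 CPM in cerebella, against 167, 145, 154 and 151 CPM in cortices. Its log2 change was -3.28 (SE 0.084, adjusted p = 3.01e-20). Both genes were thus lower in every cerebellum but still well above 0 there, unlike Sst.

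Vip (ENSMUSG00000019772, + strand of chromosome 10, 5639218 to 5647617) had 0 counts in the 4 WT cerebella of experiment 2, against 220, 175, 207 and 215 counts in the cortices. Set against a floor of 3 counts over the 4 cerebella, Vip was 428-fold lower there. Its exact 95% lower bound for counting error alone was 347-fold. Crh (ENSMUSG00000049796, - strand of chromosome 3, 19693401 to 19695396) had 0, 1, 1 and 1 counts in cerebella, against 40, 25, 42 and 23 in cortices. The 3 counts against 130 put Crh 68.0-fold lower in cerebellum, with an exact 95% interval for counting error alone of 22.8 to 334. Lhx6 (ENSMUSG00000026890, - strand of chromosome 2, 36081953 to 36105408) was at 0.200, 0.189, 0.239 and 0.0820 CPM in cerebella, against 23.4, 22.3, 22.6 and 21.7 CPM in cortices, a log2 change of -6.89 (SE 0.207, adjusted p = 6.43e-19). In the labelled cerebella, therefore, the cortical class markers Sst, Vip, Crh and Lhx6 were at or near 0, and the 26 cerebella over all experiments held 294, 31, 15 and 140 counts of them in total.

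Levels of different genes can be ranked only per length, here as CPM per kb of exon. The length is the union of a gene's annotated exons, so the order depends on that choice. In WT cerebellum the order was Pvalb at 381 ± 15.2, Gad1 at 65.2 ± 2.74, Gad2 at 41.3 ± 0.881, Slc32a1 at 30.7 ± 2.72, Cck at 12.3 ± 2.53, Npy at 11.5 ± 2.12 and Sst at 0.878 ± 0.199 CPM per kb (SD, n = 4), then Crh at 0.0486 ± 0.0328 and Lhx6 at 0.0370 ± 0.0140 CPM per kb, with Vip at 0. Only Cck and Npy, and Crh and Lhx6, overlapped with their neighbour in that order. In WT cortex the peptides led, with Sst at 156 ± 6.86, Cck at 118 ± 6.98 and Npy at 105 ± 8.76, followed by Gad2 at 45.0 ± 5.21, Gad1 at 42.7 ± 1.82, Pvalb at 32.4 ± 2.54, Slc32a1 at 23.4 ± 2.39, Vip at 8.33 ± 0.749, Lhx6 at 4.68 ± 0.143 and Crh at 3.42 ± 1.05 CPM per kb. The overlapping neighbours there were Cck and Npy, Gad2 and Gad1, and Lhx6 and Crh. The order of all 10 genes was the same in the 3 Mir7DKO cortices, with Sst first at 148 ± 3.41 and Crh last at 3.05 ± 0.0804 CPM per kb (SD, n = 3). In the 3 Mir7DKO cerebella, Npy at 12.2 ± 2.36 CPM per kb stood above Cck at 11 ± 0.161, and Lhx6 above Crh, pairs that overlapped in both genotypes.

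Genes around the 10 were examined as lists. Between WT cerebellum and WT cortex 74.7% of all genes tested passed, 37.3% higher and 37.4% lower, the share to set beside each list's counts. Of 16 tested interneuron transcription factors, a list that includes Lhx6, 13 were lower and 3 higher in WT cerebellum. The filter on low counts admits a gene by its counts in either tissue. Of this list, 16 genes were tested in the Mir7DKO cortex comparison and 7 in the Mir7DKO cerebellum comparison of experiment 2. A gene admitted by cortex counts alone can hardly come out higher in cerebellum, so the split and the median were partly fixed by the filter. Sp9, a zinc finger transcription factor, had 0 counts in cerebella against 182 in cortices and was 95.3-fold lower against a floor of 3 counts. Dlx5, a homeobox gene of the interneuron lineage, had 0 counts in cerebella against 141 in cortices and was 73.8-fold lower against that floor. Etv1 (351 ± 17.0 CPM in cerebellum and 54.5 ± 10.7 CPM in cortex), Prox1 (108 ± 7.14 CPM in cerebellum and 29.6 ± 3.13 CPM in cortex) and Maf (64.6 ± 7.51 CPM in cerebellum and 40.8 ± 3.36 CPM in cortex) were the 3 that were higher. The list's median log2 change was -5.63, or -4.97 with its 5 genes at 0 in cerebellum set at their bound, beside a median of 0.01 over all genes tested.

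Of 12 tested precursors of other neuropeptides, 11 were lower and 0 higher in WT cerebellum, with a median of -5.73 (-5.60 with the gene at 0 at its bound). In experiment 2, 12 precursors were tested in the Mir7DKO cortex comparison but 4 in that of cerebellum, so the filter partly fixed this split too. Pdyn, the precursor of dynorphins, averaged 0.110 ± 0.0373 CPM in cerebellum and 26.9 ± 9.09 CPM in cortex. Cartpt, which had 0 counts in cerebella against 116 in cortices, was 60.7-fold lower against a floor of 3 counts. Receptors and binding proteins of the member peptides were lower for 11 of 13 tested, with a median of -4.47. The same limit holds for that list, with 12 genes tested in the Mir7DKO cortex comparison and 8 in that of cerebellum. Crhbp, which binds and holds back corticotropin-releasing hormone, averaged 0.145 ± 0.175 CPM in cerebellum and 16.1 ± 1.59 CPM in cortex, and Sstr2, a somatostatin receptor, averaged 0.293 ± 0.186 CPM in cerebellum and 18.3 ± 2.30 CPM in cortex. The 2 receptors higher in cerebellum were Crhr1, a receptor of corticotropin-releasing hormone, at 56.4 ± 1.47 CPM against 23.5 ± 2.21 CPM in cortex, and Vipr2, a receptor of vasoactive intestinal peptide, at 8.27 ± 1.11 CPM against 1.05 ± 0.288 CPM in cortex.

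The GABA list, which includes Gad1, Gad2 and Slc32a1, split 5 higher and 2 lower of 9, with a median of 0.29. Its share of genes past the test was near the 74.7% over all genes, and Gad2, with its narrow call, was among the lower. Slc38a1, a neuronal glutamine transporter, averaged 665 ± 6.01 CPM in cerebellum and 276 ± 9.22 CPM in cortex, and Slc6a11, the astrocytic GABA transporter GAT3, averaged 49.8 ± 1.43 CPM in cerebellum and 138 ± 6.22 CPM in cortex. Of 12 genes for secretory granules and peptide processing, 9 were lower, among them Vgf at 10.5 ± 1.18 CPM in cerebellum and 134 ± 7.89 CPM in cortex, and 3 were higher, with a median of -0.45. Other cortical interneuron markers were mixed, at 7 higher and 8 lower of 16. In experiment 2, 17 of them were tested in the Mir7DKO cortex comparison and 12 in that of cerebellum, so the filter partly fixed this split. Lamp5, a marker of neurogliaform cells, averaged 1.14 ± 0.309 CPM in cerebellum and 189 ± 18.8 CPM in cortex. Calb2, which encodes calretinin and which cerebellar granule cells also make, averaged 337 ± 8.40 CPM in cerebellum and 11.3 ± 0.454 CPM in cortex. Of 13 cerebellar inhibitory neuron markers, 11 were higher and 2 lower, with a median of 5.81. For this list the filter works the other way, with 13 genes tested in the Mir7DKO cerebellum comparison of experiment 2 and 7 in that of cortex.

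Within the cortex, Gad2 and Slc32a1 varied between libraries more than Gad1 did. Over the 7 cortices Gad2 ranged from 222 to 315 CPM, Slc32a1 from 56.3 to 78.8 CPM and Gad1 from 312 to 350 CPM. A list of 10 striatum markers varied with them. Its summed level was 1290, 1964 and 1663 CPM in Mir7DKO cortices, against 845, 2074, 1379 and 1797 CPM in WT cortices, a 2.46-fold spread over libraries. WT cortex replicate 1 was lowest for Gad1, Gad2, Slc32a1 and the striatum sum, and of the markers Drd2 ranged from 7.97 to 32.1 CPM and Adora2a from 13.9 to 57.3 CPM. Striatal projection neurons are also GABAergic, and the part of striatal tissue in the Gad2 and Slc32a1 values was not tested. The summed level of 10 cortical excitatory neuron markers spanned 1877 to 2166 CPM over the same libraries.

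**Figure D2:**
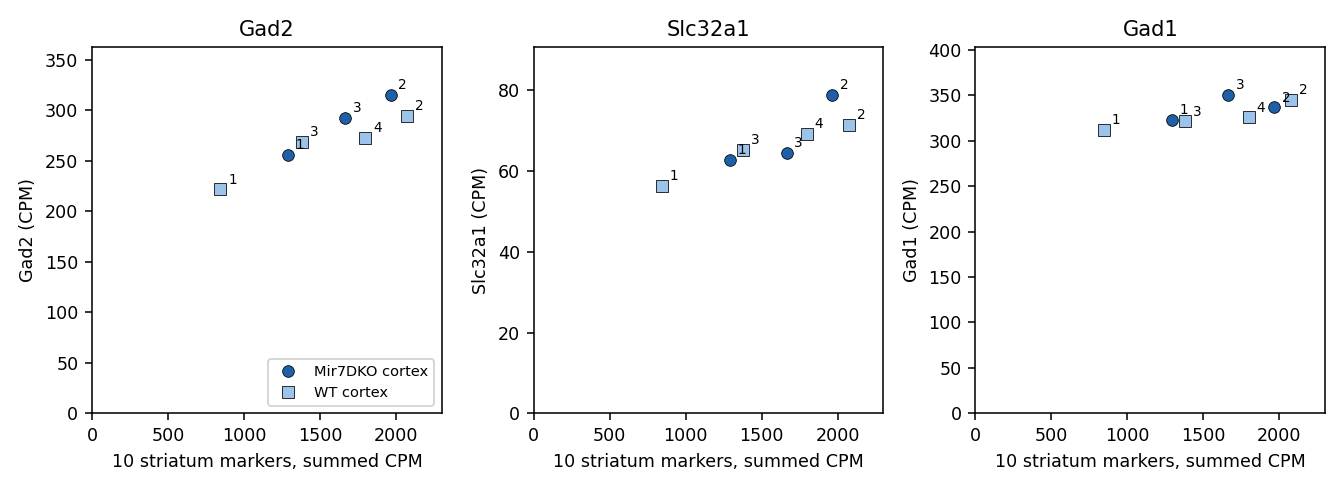
Gad2, Slc32a1 and Gad1 (CPM) in each of the 7 cortices against the summed CPM of 10 striatum markers in the same library; circles are Mir7DKO, squares WT, and numbers are replicates. WT replicate 1, at 845 CPM of striatum markers, has the lowest Gad2 at 222 CPM, and the libraries at 1964 and 2074 CPM have 315 and 294 CPM.

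The mutant comparisons ask whether loss of the miR-7 site, of Cyrano or of miR-7 genes altered these transcripts, and none of the 10 genes passed the test in any of them. In CyrMut cerebellum 8 of the 10 genes had enough counts to be tested and 0 passed, where 0.00673% of all 14866 genes did. In CyrKO cerebellum 6 were tested and 0 passed, beside 0.022% of 13664 genes. In Mir7DKO cerebellum 6 were tested and 0 passed in each experiment, beside 0.00713% of 14031 genes in experiment 1B and 0.198% of 14146 in experiment 2. In Mir7DKO cortex all 10 were tested and 0 passed, beside 0.0436% of 13754 genes. Leaving out 1 library moved these counts over all genes. In CyrMut it was 17 without CyrMut replicate 2 and 2 without WT replicate 2 or 3, in place of 1, and in CyrKO it was 10 without WT replicate 4, in place of 3. For Mir7DKO cerebellum of experiment 1B it was 2 without Mir7DKO replicate 2 or 4 and 0 without any other library, in place of 1. For Mir7DKO cerebellum of experiment 2, in place of 28, it was 3 without WT replicate 1 or 2 and 6 without WT replicate 4. Omitting a mutant library there gave 67 (Mir7DKO replicate 2) or 70 (replicate 3). For Mir7DKO cortex it was 11 without WT replicate 1, in place of 6. With so few genes past the test anywhere, these zeros say little about the 10 genes as a group. DESeq2 also called 0 of them in each comparison, and the number with an unadjusted edgeR p under 0.05 was 0 in each, except for 1, Slc32a1, in CyrKO.

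**Figure D3:**
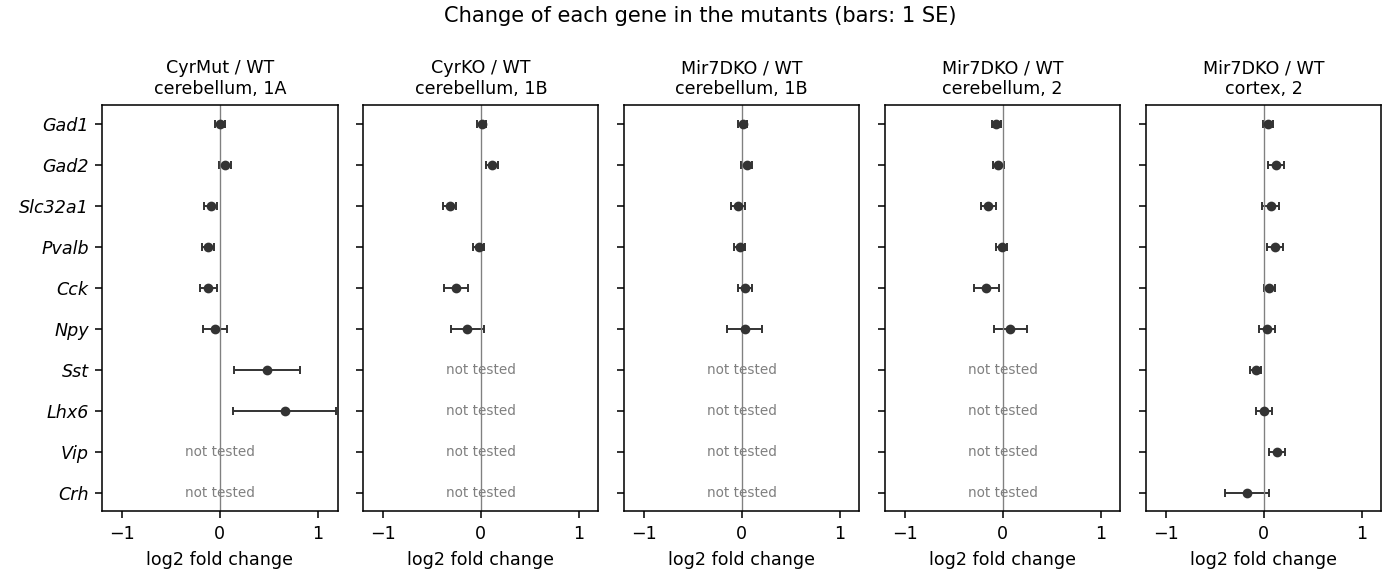
Log2 fold change of each gene, mutant over WT, in the 5 comparisons, with bars of 1 SE; genes with too few counts are marked as not tested. The changes of the GABA genes, Pvalb, Cck and Npy lie between -0.32 and 0.13, and Slc32a1 in CyrKO at -0.32 is the one farthest from 0 among them.

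Slc32a1 in CyrKO cerebellum was the gene nearest to a change. The 4 CyrKO cerebella had 83.3, 83.4, 70.3 and 73.9 CPM, against 93.2, 94.7, 96.3 and 101 CPM in the 4 WT cerebella. Every CyrKO library lay below every WT library, which also held for 1.89% of the 13664 genes tested, with 4.16% apart in either direction. The log2 change was -0.32 (SE 0.068), with an unadjusted p of 3.83e-04 that was the 8th smallest of all genes and an adjusted p of 0.598 by edgeR's quasi-likelihood test, so it did not pass. The authors' deposited table lists -0.318 with an adjusted p of 0.188. An approximate 95% interval (normal, from the SE, for this gene alone) ran from -26.8% to -12.0%. Such normal intervals, here and below, are somewhat narrow for so few libraries. This gene was also picked as the most extreme, so the estimate can overstate the change.

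Gad1 and Gad2 were not lower in CyrKO. Gad1 was at 523, 520, 492 and 506 CPM in CyrKO, against 513, 511, 490 and 504 CPM in WT, a log2 change of 0.01 (SE 0.049) with an approximate 95% interval from -5.83% to 7.5%. Gad2 was at 240, 235, 254 and 235 CPM in CyrKO, against 230, 240, 210 and 202 CPM in WT, and its change of 0.12 (SE 0.061) did not pass (adjusted p = 0.697). Per 100 CPM of Gad1 there were 15.2 ± 0.893 CPM of Slc32a1 in CyrKO and 19.1 ± 0.870 CPM in WT (SD, n = 4 each). The summed level of 14 cerebellar inhibitory neuron markers overlapped between the groups, at 7771 to 7890 CPM in CyrKO and 7211 to 7888 CPM in WT, and the same was true of all 17 lists. Gm14205, an antisense gene whose exons overlap those of Slc32a1, had 8 counts in all 33 libraries, against 34202 of Slc32a1.

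**Figure D4:**
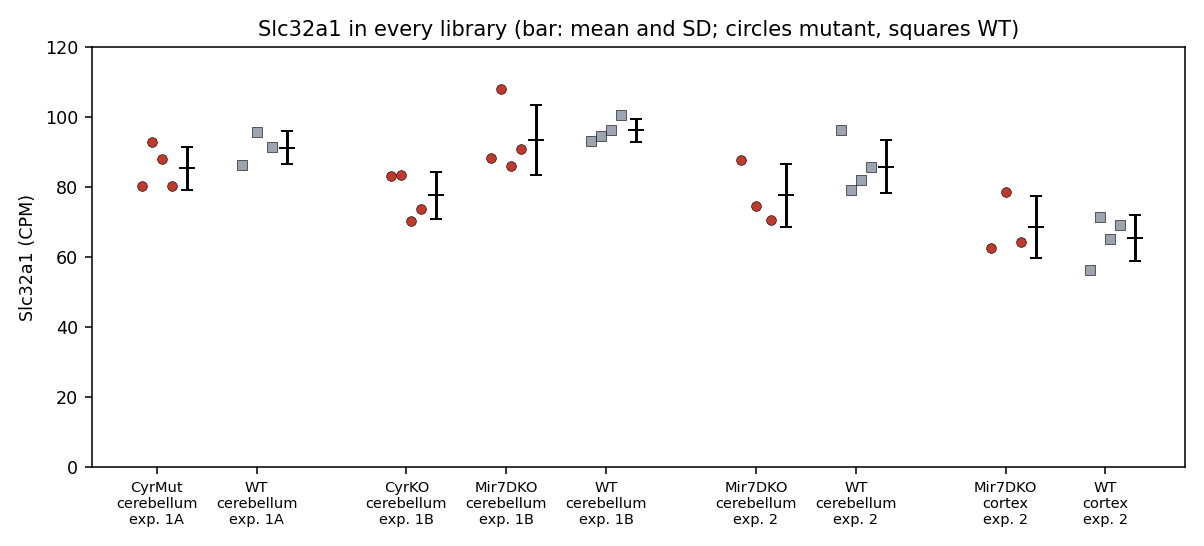
Slc32a1 (CPM) in each of the 33 libraries by group, with the mean and SD of the group beside the points; circles are mutants and squares WT. The 4 CyrKO libraries, at 70.3 to 83.4 CPM, lie below the 4 WT libraries of experiment 1B, at 93.2 to 101 CPM, and each other mutant group overlaps with its WT group.

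Against the same 4 WT libraries, Mir7DKO cerebella of experiment 1B had 88.4, 108, 86.0 and 91.0 CPM of Slc32a1, which overlap with WT, and a log2 change of -0.04 (SE 0.075). CyrKO and Mir7DKO of experiment 1B share these WT libraries, so their values are not independent of each other. In CyrMut cerebellum, Slc32a1 was at 80.4, 92.9, 88.1 and 80.2 CPM, against 86.4, 95.8 and 91.6 CPM in WT, a change of -0.10 (SE 0.068). In Mir7DKO cerebellum of experiment 2 it was at 87.8, 74.7 and 70.6 CPM, against 96.5, 79.1, 82.0 and 85.8 CPM in WT, a change of -0.15 (SE 0.075), and neither passed. Whether CyrKO differs from the other mutants in Slc32a1 was not tested.

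Cck in CyrKO cerebellum had 15.5, 19.8, 18.8 and 13.2 CPM, against 19.2, 19.0, 20.7 and 20.8 CPM in WT. The groups overlapped, with 2 CyrKO libraries low, and the change of -0.25 (SE 0.119, adjusted p = 0.679) did not pass. Npy was at 6.11, 6.05, 7.18 and 6.93 CPM in CyrKO, against 6.47, 5.56, 9.93 and 7.06 CPM in WT, a change of -0.14 (SE 0.168). Pvalb was at 339, 384, 370 and 359 CPM in CyrKO, against 359, 365, 391 and 352 CPM in WT, a change of -0.02 (SE 0.057). The genes too sparse to test in CyrKO had 32 counts of Sst in CyrKO and 32 in WT, 20 of Lhx6 in CyrKO and 21 in WT, 2 of Vip in CyrKO and 1 in WT, and 3 of Crh in CyrKO and 0 in WT, over 4 libraries each.

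In CyrMut cerebellum the differences of the 6 better-measured genes ran on the log2 scale from Pvalb at -0.12 (SE 0.066) to Gad2 at 0.05 (SE 0.061). Pvalb was at 328, 335, 323 and 297 CPM in CyrMut, against 318, 369 and 361 CPM in WT, with overlapping groups. Gad1 was at 510, 504, 501 and 516 CPM in CyrMut, against 516, 516 and 489 CPM in WT, a difference of 0.00 (SE 0.047). These levels were the closest between the groups. Cck was at 17.9, 21.2, 20.8 and 18.5 CPM in CyrMut, against 19.8, 21.3 and 22.9 CPM in WT, a difference of -0.12 (SE 0.090). Npy was at 8.18, 7.57, 9.75 and 7.85 CPM in CyrMut, against 8.07, 8.44 and 9.78 CPM in WT, a difference of -0.05 (SE 0.122). The groups overlapped for both peptides. Vip and Crh were not tested, with 8 and 5 counts in CyrMut, against 5 and 0 counts in WT. The changes of Lhx6, 0.66 (SE 0.526), and Sst, 0.48 (SE 0.337), were larger but rest on 42 and 49 counts in 4 CyrMut libraries, against 23 and 31 counts in 3 WT libraries. They did not pass either (adjusted p = 0.945 and 0.944).

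Both miR-7 forms carry the same seed, the stretch that pairs with targets, and the seed of each mature sequence (RefSeq, GRCm38.p6, bases 2 to 8) is in capitals below to show what was searched for in the members.

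mmu-miR-7a-5p: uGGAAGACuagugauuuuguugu

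mmu-miR-7b-5p: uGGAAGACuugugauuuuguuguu

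Of the 10 genes, 1, Lhx6, held a match of 7 bases (GTCTTCC or TCTTCCA) in its longest annotated 3′ UTR in GENCODE M21, as did 23.2% of 21027 genes with a 3′ UTR. Gad1, Gad2 and Sst held only the 6-base match TCTTCC, which 41.9% of genes hold alone or within a longer match, and the other 6 genes held none. The last 6 bases of the Lhx6 match start at base 1285 of a 3′ UTR of 2102 bases, and the sites are printed with the matching bases in capitals so that the longer match can be seen beside the short ones.

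Lhx6 site: agccaaaGTCTTCCtccttgtt

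Gad1 site: ttgtatttTCTTCCcatttgta

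Sst site: cccatatcTCTTCCttaactcc

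Lhx6 was measured well in cortex, where it had 21.3, 23.4 and 22.8 CPM in Mir7DKO, against 23.4, 22.3, 22.6 and 21.7 CPM in WT. The groups overlapped, and the log2 change was 0.01 (SE 0.083), with an approximate 95% interval from -10.2% to 12.5%. Cortical Sst was at 109, 107 and 104 CPM in Mir7DKO, against 118, 114, 106 and 111 CPM in WT, a change of -0.08 (SE 0.054, adjusted p = 0.915). Vip was at 33.0, 29.1 and 31.7 CPM in Mir7DKO cortex, against 29.2, 24.5, 29.8 and 29.8 CPM in WT cortex, a change of 0.14 (SE 0.085, adjusted p = 0.900). The groups overlapped for Sst and for Vip.

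The remaining genes of the Mir7DKO cortex lay between -0.17 and 0.13 on the log2 scale. Gad2 was at 255, 315 and 292 CPM in Mir7DKO, against 222, 294, 269 and 272 CPM in WT, a change of 0.13 (SE 0.079). Leaving out 1 library gave 0.20 without Mir7DKO replicate 1, 0.18 without WT replicate 2, 0.05 without Mir7DKO replicate 2 and 0.04 without WT replicate 1, and none of these passed (adjusted p of 0.797 or more). Slc32a1 was at 62.7, 78.8 and 64.4 CPM in Mir7DKO, against 56.3, 71.5, 65.1 and 69.2 CPM in WT, a difference of 0.07 (SE 0.086). Both genes had overlapping groups. Cck was at 172, 152 and 159 CPM in Mir7DKO, against 167, 145, 154 and 151 CPM in WT, a difference of 0.06 (SE 0.058). Npy was at 69.1, 53.3 and 61.5 CPM in Mir7DKO, against 57.1, 65.9, 59.8 and 54.2 CPM in WT, a difference of 0.04 (SE 0.082). The log2 difference was 0.05 (SE 0.050) for Gad1 and 0.12 (SE 0.085) for Pvalb. Crh was at 4.14, 3.97 and 3.95 CPM in Mir7DKO, against 5.31, 3.5, 6.05 and 3.18 CPM in WT, a difference of -0.17 (SE 0.221). None of these differences passed, and summed levels of astrocyte markers (7429 to 7614 CPM in Mir7DKO cortices, 6796 to 7210 CPM in WT cortices) and of endothelial markers (332 to 356 CPM in Mir7DKO cortices, 303 to 324 CPM in WT cortices) were the 2 of 17 lists whose groups were apart. Their part in these values was not tested.

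In Mir7DKO cerebellum the changes ran from -0.04 to 0.05 in experiment 1B and from -0.17 to 0.08 in experiment 2. Gad1 was at 518, 485, 518 and 506 CPM in Mir7DKO of experiment 1B, against 513, 511, 490 and 504 CPM in WT, and at 481, 492 and 458 CPM in Mir7DKO of experiment 2, against 491, 521, 472 and 507 CPM in WT. Its approximate 95% intervals ran from -5.63% to 7.27% in experiment 1B and from -10.4% to 2.21% in experiment 2. Pvalb was at 370, 343, 359 and 370 CPM in Mir7DKO against 359, 365, 391 and 352 CPM in WT of experiment 1B, and at 389, 370 and 422 CPM in Mir7DKO against 412, 377, 391 and 406 CPM in WT of experiment 2. Gad2 was at 234, 224, 236 and 217 CPM in Mir7DKO against 230, 240, 210 and 202 CPM in WT of experiment 1B, and at 225, 229 and 254 CPM in Mir7DKO against 236, 248, 241 and 245 CPM in WT of experiment 2. Cck differed by 0.04 (SE 0.074) on the log2 scale in experiment 1B and by -0.17 (SE 0.125) in experiment 2, and Npy by 0.03 (SE 0.178) and 0.08 (SE 0.168). Sst, Vip, Crh and Lhx6 were too sparse to test in either experiment. Groups overlapped for every tested gene in both experiments, where they did not for 2.54% of all genes tested in experiment 1B and 6.67% in experiment 2. They also overlapped for every tested gene in CyrMut cerebellum and in Mir7DKO cortex, where they did not for 5.39% and 6.86% of all genes.

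The response to the Mir7DKO genotype was also compared between tissues within experiment 2. None of the 10 genes passed the test of cerebellar minus cortical change, beside 0.155% of 14886 genes, and DESeq2 called none either. Those 23 genes became 1 on omitting Mir7DKO cortex replicate 2 or WT cortex replicate 4 and 48 on omitting Mir7DKO cerebellum replicate 3, and omitting 8 of the other libraries gave 4 to 11. For Slc32a1 the difference was -0.22 (SE 0.125), for Gad2 -0.17 (SE 0.102), for Gad1 -0.11 (SE 0.070) and for Cck -0.22 (SE 0.132). For Pvalb it was -0.12 (SE 0.101), for Npy 0.04 (SE 0.183), for Sst 0.32 (SE 0.375) and for Lhx6 0.23 (SE 0.595). The approximate 95% intervals of these 8 differences all included 0. The differences of Crh, -0.86 (SE 1.162), and Vip, 2.23 (SE 1.185), rest on 1 and 2 counts in the Mir7DKO cerebella. In this experiment choroid plexus markers summed to 212 to 1471 CPM in Mir7DKO cerebella and 212 to 257 CPM in WT cerebella, and to 264 to 281 CPM in Mir7DKO cortices and 261 to 959 CPM in WT cortices. Of the choroid plexus markers, 5 of 9 tested were higher in Mir7DKO cerebellum, led by Ttr at a log2 change of 6.01 (SE 0.804), and 1 of 6, Ttr at -5.78 (SE 1.01), was lower in Mir7DKO cortex. In the difference between tissues 9 of 13 were higher. Their part in the values of the 10 genes was not tested.

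The 7 lists of genes around the 10 held no gene that passed in the mutants. Of the GABA, interneuron transcription factor, neuropeptide, receptor, secretory granule, other interneuron and cerebellar inhibitory lists, 0 genes passed in any of the 5 mutant comparisons or in the difference between tissues. Over all genes, 0.00673% to 0.198% passed in the mutant comparisons and 0.155% in the difference, so these zeros say little about the lists. Under the alternatives run, at most 2 precursors of other neuropeptides passed, both higher, in Mir7DKO cerebellum of experiment 2 and in Mir7DKO cortex. At most 1 gene of the receptor, secretory granule or other interneuron lists passed in any comparison under them. In CyrMut cerebellum the medians of these 7 lists lay between -0.24, for 9 receptors and binding proteins, and 0.01, with all genes at a median of 0.00. The summed striatum markers were also the 1 list of 17 whose groups were apart there, at 343 to 369 CPM in CyrMut cerebella and 399 to 484 CPM in WT cerebella, and its part in the values of the 10 genes was not tested.

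A single library stood apart for the sparse peptide genes. Mir7DKO cerebellum replicate 2 of experiment 1B had 71 counts of Sst (4.74 CPM), where the other 25 cerebella had at most 18 counts (1.85 CPM), and 11 counts of Vip (0.735 CPM), where the others had at most 3 (0.148 CPM). The other 3 Mir7DKO cerebella of that experiment had 0.635, 0.361 and 0.806 CPM of Sst, against 0.457, 0.535, 1.3 and 0.642 CPM in WT. Neither gene had enough counts across the comparison to be tested.

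**Figure D5:**
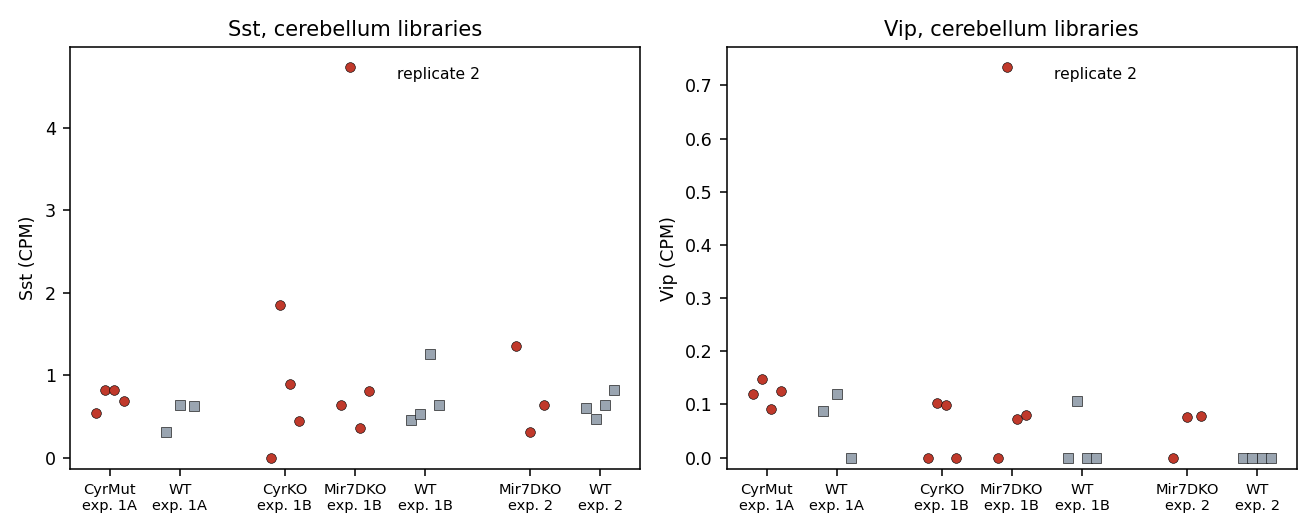
Sst and Vip (CPM) in the 26 cerebella by group; circles are mutants and squares WT. Replicate 2 of the Mir7DKO group of experiment 1B, at 4.74 CPM of Sst and 0.735 CPM of Vip, is above all other libraries, which reach 1.85 and 0.148 CPM.

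Other genes were high in that library as well. Slc17a6, the vesicular glutamate transporter of subcortical excitatory neurons, was at 39.8 CPM, against 9.03 to 21.5 CPM in the other 11 libraries of experiment 1B, and Kcnc2, a potassium channel of fast-spiking cells, was at 13.2 CPM against 2.54 to 5.27 CPM. Tac1 was at 1.67 CPM against 0.0722 to 0.598 CPM, Bcl11b at 5.01 CPM against 1.1 to 2.28 CPM, and Slc32a1 at 108 CPM against 70.3 to 101 CPM. In all, 41 of 13978 genes with a mean CPM of at least 1 were more than 2-fold above the highest of the other 11 libraries, where the other libraries had 0 to 4 such genes. It lay above all the other 11 for 8.02% of those genes, where the other libraries did so for 4.79% to 12.9%. By list, it lay above the other 11 for 5 of 14 receptors and binding proteins, 3 of 9 GABA genes, 3 of 10 striatum markers, 3 of 10 cortical excitatory markers, 4 of 17 other interneuron markers and 4 of 18 precursors of other neuropeptides. It did so for 2 of 10 brainstem and spinal markers, 2 of 10 oligodendrocyte markers, 2 of 12 secretory granule genes, 1 of 8 microglia markers and 0 genes of the other lists, such as the 14 cerebellar inhibitory markers and 18 interneuron transcription factors. Of 8 hypothalamus markers, 0 were above the other libraries, and Hcrt, Pmch and Avp had 0 counts in it. The part of tissue from outside the cerebellum in these values was not tested. Without this library the Slc32a1 change in Mir7DKO of experiment 1B was -0.12 (SE 0.062).

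Levels in the 3 sets of WT cerebella, made for separate experiments, were not compared by a test. Library sizes were scaled within each experiment and not jointly, so small differences between the sets are not read here. Gad1 was at 507 ± 15.7, 505 ± 10.5 and 498 ± 21 CPM in experiments 1A, 1B and 2 (SD, n = 3, 4 and 4), and Gad2 at 222 ± 13.7, 221 ± 17.4 and 243 ± 5.18 CPM. Pvalb was at 318 to 369 CPM in experiment 1A, 352 to 391 CPM in 1B and 377 to 412 CPM in 2. Lhx6 was at 0.238 to 0.631 CPM in experiment 1A, 0.321 to 0.609 CPM in 1B and 0.0820 to 0.239 CPM in 2, from a few counts a library. Cck averaged 21.3 ± 1.52, 19.9 ± 0.938 and 16.1 ± 3.30 CPM, and Npy 8.76 ± 0.902, 7.25 ± 1.89 and 6.52 ± 1.2 CPM, in experiments 1A, 1B and 2. Within groups, the SD of log2 CPM over the 26 cerebella was 0.043 for Gad1, 0.076 for Gad2 and for Pvalb, 0.118 for Slc32a1, 0.166 for Cck and 0.231 for Npy, and it was 0.921 for Sst. In the 7 cortices it was 0.054 for Sst, 0.056 for Lhx6, 0.060 for Gad1, 0.166 for Gad2, 0.163 for Slc32a1 and 0.337 for Crh. Gad1 was thus among the steadiest of the 10 genes in both tissues, and Gad2 varied more in cortex than in cerebellum.

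The genes whose library-to-library deviations from their group means were most like those of a member over the 33 libraries were found by Pearson's r among 11392 genes with a mean CPM of at least 5. For Gad2 these were Strip2 (r = 0.844) and Spock3 (0.824), for Slc32a1 Mcrs1 (0.766) and Sppl2b (0.758), for Sst Fam163b (0.878) and Vstm2l (0.851), and for Vip Rasgrf2 (0.828) and Enc1 (0.807). For Gad1 they were Trmt5 (0.656) and Gpank1 (0.650), for Pvalb Pacsin3 (0.721) and Ndufb11 (0.695), for Npy Ybx1 (0.769) and Nfkbiz (0.740), for Cck Klc1 (0.721) and Pdxp (0.707), for Crh Arnt2 (0.754) and Cept1 (0.608), and for Lhx6 Hdac4 (0.686) and Ankrd39 (0.672). The points share libraries and their depth, and both tissues were pooled. Each r is among the 2 highest of 11392, so part of its size comes from the search, and that part was not tested. Over the 26 cerebella Sst, Vip, Crh and Lhx6 had 294, 31, 15 and 140 counts, so their deviations there rest on few counts. Without Mir7DKO cerebellum replicate 2 of experiment 1B, r was 0.830 for Sst with Fam163b but 0.621 for Vip with Rasgrf2.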

How the data were processed

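Polyadenylated RNA from frozen cerebellum and cortex was sequenced as stranded libraries, per the labels' protocols. The deposited tables hold raw read counts per gene. Per the submitters' processing notes, the tools were DESeq2 1.10, HTSeq 0.6.1p1 and STAR 2.4, and the build was mm10/GRCm38. Use of strand in counting: not given in the sources used here. The authors' deposited log2 fold change and p-value are quoted for 1 gene; the deposited score (a Wald statistic) and the deposited scaled signal per library were not used.

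Each comparison was fitted to the counts with edgeR 4.0.16 in R 4.3.3 (filterByExpr minimum count 10, TMM library sizes), with the quasi-likelihood test and p adjusted over all genes tested by Benjamini-Hochberg, called under 0.05. The fits were each mutant against WT of its own table, WT cerebellum against WT cortex, and the difference of the Mir7DKO effect between tissues. The scripts were tested on simulated data. Alternatives were DESeq2 1.42.0, its size factors, no filter, a replicate block and each library left out. In 1 record of the CyrMut table a missing cell had shifted the later cells, and these were restored. Libraries held 6.89 to 24.94 M counts, and intervals on counts cover counting error only. Fold limits against 0 counts use a floor of 3 counts over the group, which is a convention and not a strict minimum.

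The 10 members and the lists were chosen with earlier results of these data known. All 10 members were to be named in every comparison, the sparse ones by counts or as not tested; of each list, at most 3 of the largest changes in each direction are named for the tissue comparison. Some items are not reported here. The genes most alike a member are the 2 with the highest r. Nothing in the labels shows whether replicates came from separate litters, so p-values measure the spread between these animals' libraries.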

Additional observations from a re-analysis of the deposited data

Results flagged for a closer look

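Of 58 groups of 4 libraries examined, 5 held a library far from the others, where chance flags about 1 group in 20 for continuous values. That rate does not apply to values of 0 or 1 count, which make up 2 of the 5. In Mir7DKO cerebella of experiment 1B, replicate 2 stood apart for Sst, at 4.74 CPM where the other 3 had 0.361 to 0.806 CPM, and for Vip, at 0.735 CPM where they had 0 to 0.0806 CPM. Vip in WT cerebellum of experiment 1B was at 0.107 CPM in replicate 2, which is 1 count, where the other 3 had 0. Vip in WT cortex was at 24.5 CPM in replicate 2, where the others had 29.2 to 29.8 CPM. Crh in WT cerebellum of experiment 2 was at 0.0 CPM in replicate 1, where the others had 0.0797 to 0.0947 CPM, which is 1 count each.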

How the results depend on the processing

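No member passed in any mutant comparison or in the difference between tissues under any alternative run. In the tissue comparison 9 or 10 members passed, and 10 with another size factor or with a replicate block. Gad2 alone lost its call there, with DESeq2 (adjusted p = 0.0891), with no filter (0.127) and on leaving out any library but WT cortex replicate 1. No member's direction reversed on a called value. Slc32a1 in CyrKO had log2 changes from -0.35 to -0.27 and adjusted p from 0.102 to 0.960 over its 12 alternatives. Correlations of same-numbered libraries ran from -0.209 to 0.28 in CyrMut, from -0.308 to 0.132 in CyrKO, from 0.001 to 0.379 in Mir7DKO of experiment 1B, from -0.083 to 0.091 in Mir7DKO cerebellum of experiment 2 and from 0.066 to 0.101 in Mir7DKO cortex, where all 3 were above 0. Between WT cerebella and WT cortices of experiment 2 they ran from -0.045 to 0.002. Same-numbered pairs averaged 0.073 in CyrMut, 0.154 in Mir7DKO of experiment 1B and 0.086 in Mir7DKO cortex, against -0.025, -0.052 and -0.028 for other pairs. The averages were -0.044 in CyrKO, -0.022 in Mir7DKO cerebellum of experiment 2 and -0.02 between WT tissues, against 0.015, 0.007 and 0.007. In no comparison was every same-numbered pair over 0.1, so the numbers were not used as pairs. That cut cannot show whether the libraries were paired. The sample titles do not say whether cerebella and cortices of experiment 2 came from the same mice, and the main fits treated all libraries as independent. With the replicate block, Slc32a1 in CyrKO stood at -0.32 (log2) with adjusted p = 0.817, members past the test stayed at 0 in the mutants, and the count over all genes in Mir7DKO cortex was 19 in place of 6, and in Mir7DKO cerebellum of experiment 1B 2 in place of 1. With no filter, counts over all genes were 43 in place of 1 (CyrMut), 10 in place of 3 (CyrKO), 4 in place of 1 (Mir7DKO, experiment 1B), 184 in place of 28 (Mir7DKO cerebellum, experiment 2), 48 in place of 6 (Mir7DKO cortex) and 74 in place of 23 (difference between tissues). DESeq2 called 4 genes in CyrMut, 3 in Mir7DKO of experiment 1B and 13 for the difference between tissues. Leaving out 1 library gave counts over all genes from 1 to 17 in CyrMut, 3 to 10 in CyrKO, 0 to 2 in Mir7DKO of experiment 1B, 3 to 70 in Mir7DKO cerebellum of experiment 2, 4 to 11 in Mir7DKO cortex and 1 to 48 in the difference between tissues. Choroid plexus markers higher in Mir7DKO cerebellum of experiment 2 numbered 1 to 12 over the alternatives. Depth limits Sst, Vip, Crh and Lhx6 in cerebellum, where most comparisons could not test them.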
